A study of Mus musculus with 12 samples.

Results

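10 genes of the limb surface were followed: the basal keratins Krt5, Krt14 and Krt15, the simple keratins Krt8, Krt18 and Krt19, and the general ectoderm markers Trp63, Epcam, Cdh1 and En1. Every probe set that the platform annotation assigns to exactly 1 of them was taken, which gave 16 of the 22690 probe sets on the A array and 2 of the 22575 on the B array. The A array covered all 10 genes. The B array covered Trp63 and Epcam with 1 probe set each and no keratin of the set. The samples were autopods, the plates that form foot and hand, dissected from wild-type mice at E12.5 of gestation. The series holds 3 hindlimb samples (numbered 12, 14 and 26) and 3 forelimb samples (11, 13 and 25), each hybridised to an Affymetrix MOE430 A and a MOE430 B GeneChip, for 12 arrays in all. No treatment or mutation is named for either limb, and the labels give no strain or sex and do not say whether a sample was 1 embryo or a pool. For forelimb 11 on the A array the limb was read from the title alone.

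The limb is covered by a thin ectoderm whose cells build their intermediate filaments from pairs of keratins, 1 of type I and 1 of type II. Simple epithelia and the early surface ectoderm use Krt8 (type II) with Krt18 or Krt19 (type I). As the epidermis commits to stratification under the transcription factor p63, encoded by Trp63, its basal layer takes up Krt5 (type II) with Krt14 and, in part, Krt15 (type I), while simple keratins persist in the outer periderm. Epcam and Cdh1 (E-cadherin) are adhesion proteins of epithelial cells in general, and En1 is a homeobox factor of the ventral limb ectoderm. An autopod is mostly mesenchyme, so all of these transcripts come from a minor part of the tissue. In such whole-tissue RNA, fewer cells of a type and less RNA per cell cannot be told apart.

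In the RefSeq assembly GRCm38.p6, Krt8 and Krt18 are direct neighbours with 0 protein-coding genes between them, and Krt5 lies in the same cluster 10 protein-coding genes from Krt8. Krt15 and Krt19 are likewise neighbours, with 2 protein-coding genes between Krt15 and Krt14. Start regions of the keratins that are neighbours or partners are shown because Krt5 and the brightest Krt14 probe set differed below with one sign and the tested Krt8 and Krt18 probe sets with the other. They run 5′ to 3′ from 250 bases before to 50 bases after a RefSeq start (4 of the 6 members with an entry are shown). Capitals mark TATAAA, the letters of a TATA box core, and GCCNNNGGC, the letters of an AP-2 motif, searched on both strands.
Krt5, chr15:101712856-101713155, minus strand: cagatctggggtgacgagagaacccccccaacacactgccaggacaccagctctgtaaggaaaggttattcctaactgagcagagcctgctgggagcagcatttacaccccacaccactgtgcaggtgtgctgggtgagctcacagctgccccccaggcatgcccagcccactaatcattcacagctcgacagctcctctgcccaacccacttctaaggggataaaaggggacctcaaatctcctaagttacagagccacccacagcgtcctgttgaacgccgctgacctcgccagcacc
Krt14, chr11:100205981-100206280, minus strand: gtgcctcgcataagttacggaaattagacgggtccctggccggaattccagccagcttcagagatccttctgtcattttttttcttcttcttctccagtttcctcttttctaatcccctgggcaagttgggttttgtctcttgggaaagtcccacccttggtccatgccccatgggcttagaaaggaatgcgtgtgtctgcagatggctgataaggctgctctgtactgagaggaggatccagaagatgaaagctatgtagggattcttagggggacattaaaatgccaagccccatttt
Krt8, chr15:102004293-102004592, minus strand: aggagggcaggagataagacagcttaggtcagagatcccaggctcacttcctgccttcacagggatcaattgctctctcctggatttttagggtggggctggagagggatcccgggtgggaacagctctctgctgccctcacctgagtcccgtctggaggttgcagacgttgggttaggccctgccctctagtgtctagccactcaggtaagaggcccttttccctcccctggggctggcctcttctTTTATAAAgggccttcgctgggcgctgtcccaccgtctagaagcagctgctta
Krt18, chr15:102027966-102028265, plus strand: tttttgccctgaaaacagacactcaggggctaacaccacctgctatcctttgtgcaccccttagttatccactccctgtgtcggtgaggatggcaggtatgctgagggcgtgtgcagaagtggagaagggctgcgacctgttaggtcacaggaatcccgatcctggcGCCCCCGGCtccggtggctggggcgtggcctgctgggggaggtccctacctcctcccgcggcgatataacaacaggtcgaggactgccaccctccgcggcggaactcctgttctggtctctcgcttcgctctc
The Krt8 window held TATAAA in both orientations, overlapping in a single run that spans the RefSeq start, with first bases at -3 and -1 from it. The Krt18 window held GCCNNNGGC once, with its first base at -83. Neither motif was found in the Krt5 or the Krt14 window. The annotated Krt14 gene reaches further upstream than the start shown, so its window does not speak of the upstream end of the gene. TATAAA occurred in 13.6% and GCCNNNGGC in 16.6% of the 32851 start regions of the same length. A match describes the letters only.

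The question put to the arrays was whether these transcripts differ between the foot and the hand plate. Signals are the authors' MAS5.0 values, each array brought to a 2% trimmed mean of 500. Differences are log2 hindlimb minus forelimb of signal + 32, a scale that compresses the changes of dim signals, and n = 3 samples per limb throughout. A probe set was tested when its scaled signal reached 100 on at least 3 of the 6 arrays of its design. That left 10 of the 16 member probe sets on the A array (8 genes: all basal keratins, Krt8, Krt18, Trp63, Epcam and Cdh1, with 1 to 3 probe sets each) and both on the B array. By limma with Benjamini-Hochberg adjustment over each design, 0 of these 12 probe sets passed 0.05, where 0.0326% of all 15338 tested probe sets passed on the A array and 0.0117% of 17145 on the B array. An unadjusted p under 0.05 was reached by 4 member probe sets, those of Krt5 and Krt15 and 2 of Krt14, all on the A array with negative differences, where 3.69% of all probe sets had that direction and p. The labels do not say that samples were separate animals, so the p-values speak only of the spread among these samples, which may be technical.

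The limbs were told apart by their identity genes. Tbx5, the forelimb T-box factor, had signals of 8.0 to 13.9 in hindlimb and 474.0 to 554.6 in forelimb samples on 1 A probe set. On its brighter A probe set hindlimb 14 had 173.8, against 29.3 and 29.7 in hindlimb 12 and 26. The forelimb samples had 1145.1 to 1380.9 there. Pitx1, the hindlimb homeobox factor, had 478.0 to 678.1 in hindlimb and 99.0 to 159.8 in forelimb samples on 1 A probe set. Between 65.6% and 68.1% of A probe sets and 72.7% to 75.5% of B probe sets reached a signal of 100.

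Krt15 had the largest difference among the members. Its signals were 111.3, 81.5 and 82.7 in hindlimb samples 12, 14 and 26, against 377.3, 268.8 and 234.9 in forelimb samples 11, 13 and 25. All hindlimb samples lay below all forelimb samples, and forelimb 11 was the highest. The difference was -1.38 ± 0.20 (SE), with a 95% interval of -1.82 to -0.94. It missed the threshold with a limma adjusted p of 0.059. The size depended on the pseudocount, since the hindlimb signals are dim. With a pseudocount of 1 it was -1.65 and with 100 it was -1.02. The probe set entered the test through its 3 forelimb arrays and 1 hindlimb array, so a filter on low values favoured a difference in this direction. Weighting the arrays by their quality gave -1.30 and a limma adjusted p of 0.0291, and without the filter the adjusted p was 0.223.

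Krt14, the type I partner of Krt5, was read by 3 probe sets, of which 1 differed from the others. On the brightest, 1423935_x_at, hindlimb samples 12, 14 and 26 had 827.0, 698.8 and 540.0, and forelimb samples 11, 13 and 25 had 1578.4, 1196.4 and 982.3. On 1460347_at the hindlimb signals were 514.4, 469.4 and 454.9 and the forelimb signals 924.0, 725.5 and 700.7. On both, every hindlimb sample was below every forelimb sample and forelimb 11 stood highest. The differences were -0.83 ± 0.19 (limma adjusted p = 0.438) and -0.66 ± 0.14 (adjusted p = 0.301). The third probe set, 1455573_at, was dim and level, at 149.5, 153.5 and 154.0 in hindlimb and 144.2, 147.5 and 135.7 in forelimb samples. Its limbs did not overlap either, with hindlimb above, but the difference was 0.08 ± 0.16 (adjusted p = 0.995). The suffix x marks a probe set some of whose probes can bind other sequences, and a further probe set that the annotation gives to Krt14 together with Krt17 was not counted as a member.

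Krt5, the type II keratin of the basal layer, was bright in both limbs. It had 968.7, 962.7 and 760.1 in hindlimb samples 12, 14 and 26, and 1224.9, 1220.2 and 1120.8 in forelimb samples 11, 13 and 25. The groups did not overlap, and hindlimb 26 was the lowest. The difference of -0.40 ± 0.13 had a 95% interval of -0.69 to -0.11 and a limma adjusted p of 0.65. Of the 5 basal keratin probe sets, 4 thus had hindlimb below forelimb in every sample, an arrangement found on 6.1% of all tested A probe sets. The median difference of all 5 was -0.66, against -0.01 over all tested probe sets of the array.

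**Figure D1:**
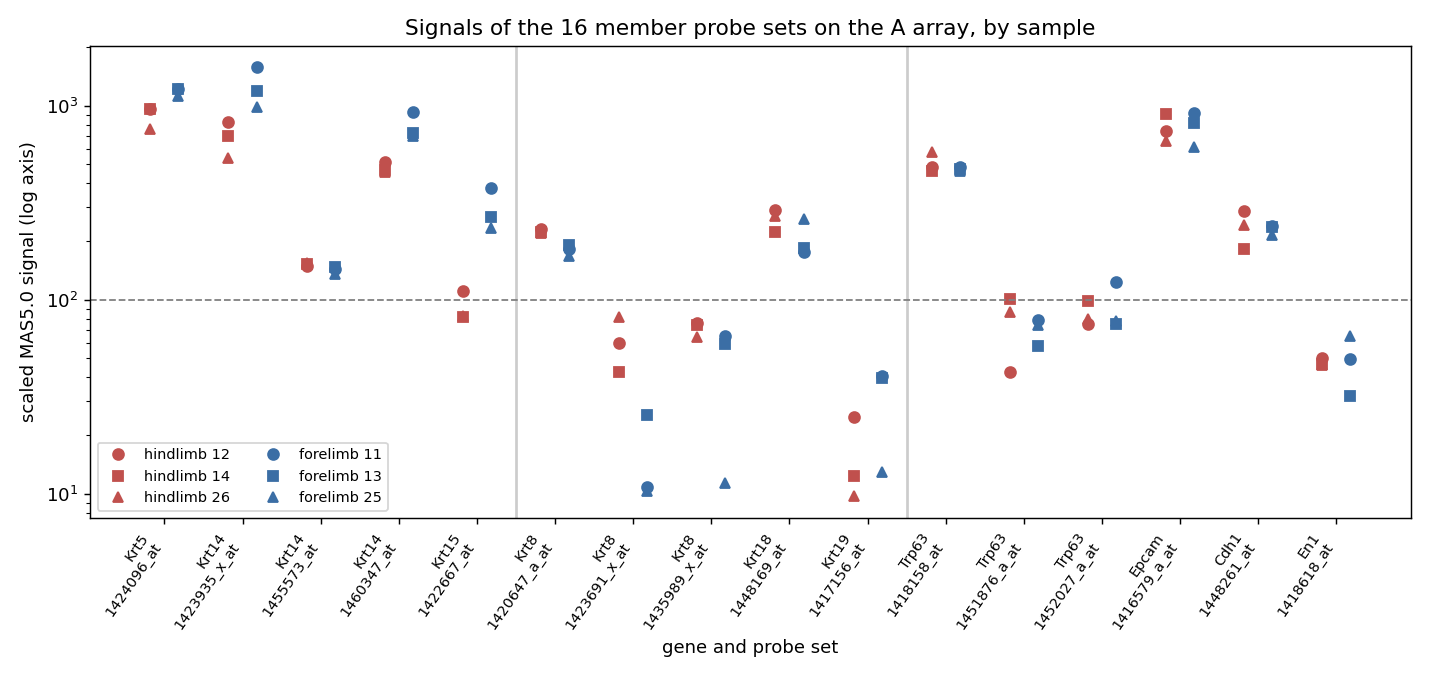
Scaled MAS5.0 signal (log axis) of each of the 16 member probe sets on the A array, 1 point per sample, hindlimb in red on the left and forelimb in blue on the right of each pair; the dashed line is the signal of 100 used in the filter. The hindlimb points of Krt5, Krt15 and 2 Krt14 probe sets lie below all forelimb points, while those of Krt8 1420647_a_at lie above.

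The tested simple keratin probe sets, 1 of Krt8 and 1 of Krt18, had differences of the other sign, and neither passed the threshold. Krt8 on its brightest probe set had 232.4, 222.5 and 221.5 in hindlimb samples 12, 14 and 26, against 181.8, 191.5 and 169.1 in forelimb samples 11, 13 and 25. Every hindlimb sample was above every forelimb sample, as on 4.94% of all tested A probe sets. The difference was 0.28 ± 0.14, with a 95% interval of -0.04 to 0.59 (limma adjusted p = 0.94). Krt18, its type I partner, had 291.6, 222.5 and 270.6 in hindlimb and 175.8, 185.8 and 260.1 in forelimb samples. Forelimb 25 lay among the hindlimb values, so the limbs overlapped. The difference was 0.31 ± 0.18, with an interval of -0.08 to 0.70 (adjusted p = 0.94).

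The other simple keratin probe sets were below the filter and were not tested. Krt8 1423691_x_at had 60.0, 42.4 and 81.8 in hindlimb and 10.9, 25.4 and 10.3 in forelimb samples. Krt8 1435989_x_at had 75.8, 74.0 and 64.0 in hindlimb and 65.1, 59.4 and 11.4 in forelimb samples. The first showed hindlimb above forelimb in every sample and the second overlapped. Both are of the x kind. Krt19, the other type I keratin of simple epithelia, stayed below the filter on every array, with 9.7 to 24.8 in hindlimb and 12.9 to 40.7 in forelimb samples. Its difference of -0.38 had the sign of the basal keratins. Its limbs overlapped, and at such signals no order can be read.

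The general ectoderm markers lay near equality on the A array. Epcam had 742.6, 907.0 and 660.2 in hindlimb and 918.7, 814.3 and 611.4 in forelimb samples, a difference of -0.01 ± 0.17 (95% interval -0.39 to 0.37). Cdh1 had 287.5, 181.9 and 242.4 in hindlimb and 241.5, 237.2 and 215.7 in forelimb samples, a difference of 0.01 ± 0.17 (interval -0.37 to 0.39). The brightest Trp63 probe set had 483.1, 463.0 and 576.1 in hindlimb and 485.6, 473.9 and 460.3 in forelimb samples, a difference of 0.09 ± 0.13 (interval -0.21 to 0.38). All 3 overlapped between the limbs, with limma adjusted p of 0.992 to 0.999. Differences as large as that of Krt15 lie outside each of these intervals, and changes of up to 0.37 to 0.39 in either direction do not for Epcam and Cdh1.

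Trp63 and Epcam were noisier on the B array. Trp63 1459581_at had 240.7, 293.5 and 423.5 in hindlimb and 443.5, 376.4 and 464.9 in forelimb samples, a difference of -0.42 ± 0.23 (95% interval -0.93 to 0.10, limma adjusted p = 0.904). Hindlimb 26 lay above forelimb 13, so the limbs overlapped, and the sign was opposite to that of the A probe set. Epcam 1447899_x_at had 433.5, 904.9 and 844.2 in hindlimb and 959.2, 417.8 and 882.7 in forelimb samples. Here hindlimb 12 and forelimb 13 were low and the other 4 samples high, a split that did not follow the limb (-0.03 ± 0.33, adjusted p = 0.992). On the B array the limbs parted on 10.9% of all tested probe sets. The samples did not split in this way on the A probe set of Epcam. The other 2 Trp63 probe sets on the A array were below the filter, with 42.3 to 101.4 in hindlimb and 57.7 to 78.5 in forelimb samples on one and 75.1 to 98.7 in hindlimb and 75.3 to 123.4 in forelimb samples on the other. En1 had 46.0 to 50.1 in hindlimb and 32 to 64.8 in forelimb samples, below the filter on every array.

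**Figure D2:**
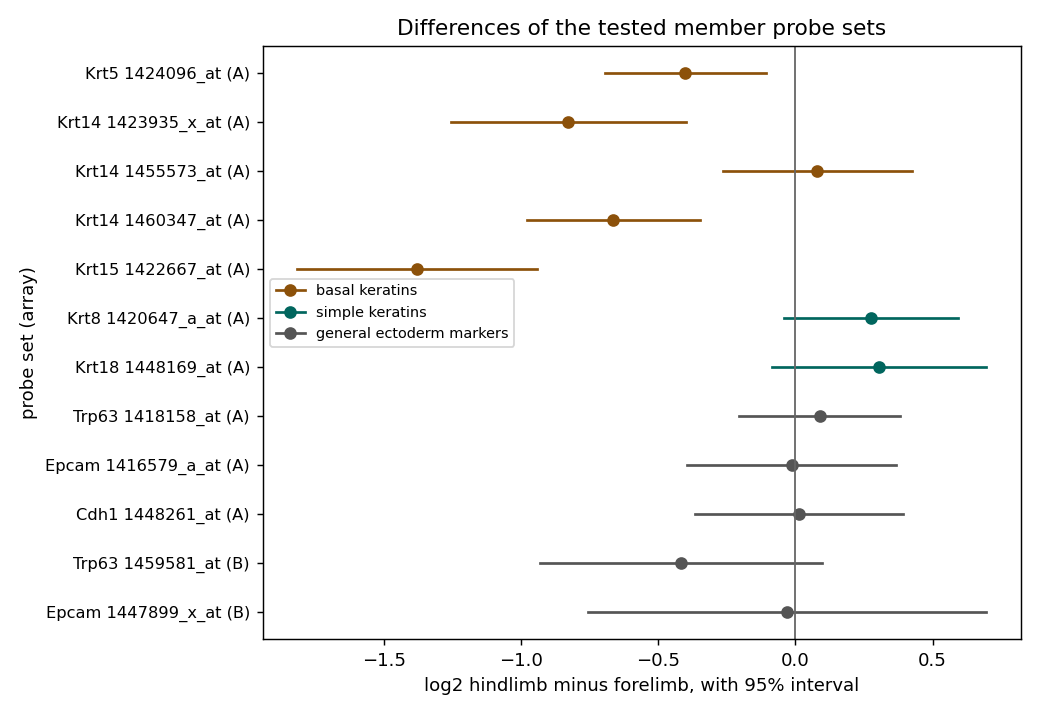
Log2 hindlimb minus forelimb of the 12 tested member probe sets (points) with 95% intervals from limma (lines), coloured by group; the array design is in brackets. The intervals of Krt5, Krt15 and 2 Krt14 probe sets lie below 0, and those of the simple keratins and the general markers include 0.

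Within the A array the tested probe sets of basal and simple keratins were then set against each other, which leaves out Krt19. Of the basal ones 4 of 5 were below 0 and the dim Krt14 probe set 1455573_at was not, while both simple ones were above 0. Each probe set was centred on its mean over the 6 arrays and averaged over its group. Basal keratins were at -0.18, -0.32 and -0.46 in hindlimb samples 12, 14 and 26, and at 0.52, 0.29 and 0.15 in forelimb samples 11, 13 and 25. Simple keratins were at 0.24, 0.04 and 0.16 in hindlimb and at -0.23, -0.17 and -0.03 in forelimb samples. Forelimb 11 thus had the highest basal and the lowest simple keratin level, and forelimb 25 was the forelimb sample nearest to the hindlimb in both. Basal minus simple averaged -0.46 ± 0.14 in hindlimb and 0.46 ± 0.29 in forelimb samples (SD, n = 3 each), a difference of -0.93. It was -0.78 without forelimb 11 and -1.07 without forelimb 25. This is a description of chosen genes on log2 levels, with no test, and it shows unequal change only. The general markers ranged from -0.05 to 0.07 in hindlimb and from -0.16 to 0.10 in forelimb samples.

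**Figure D3:**
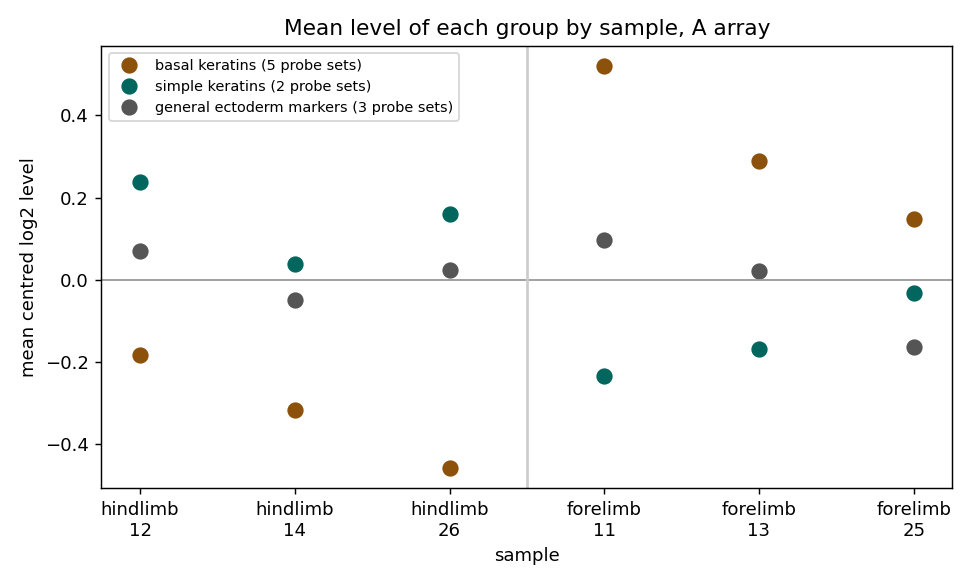
Mean centred log2 level (vertical axis) of basal keratins (5 probe sets), simple keratins (2) and general ectoderm markers (3) in each sample of the A array, hindlimb samples on the left. Basal keratins lie at -0.46 to -0.18 in hindlimb and 0.15 to 0.52 in forelimb samples, while the general markers of the limbs overlap.

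Some other measures of the same A arrays also parted the limbs. The log2 ratio of 3′ to 5′ Gapdh signal, a sign of RNA quality, was -0.299 to -0.263 in hindlimb and -0.239 to -0.078 in forelimb samples (exact two-sided permutation p = 0.1, the smallest that 3 against 3 samples allow). That of beta-actin overlapped, at 0.222 to 0.270 in hindlimb and 0.118 to 0.261 in forelimb samples (exact p = 0.3). The summed signal of 5 blood markers was 31439 to 34963 in hindlimb and 28019 to 30829 in forelimb samples. All 4 tested ones had positive differences on their brightest probe sets, and Hba-a1 did not reach 100. Hbb-y, an embryonic globin, had 0.18 ± 0.07, but 0.06 and -0.05 with overlapping limbs on 2 others that were nearly as bright. The 14 mesenchyme markers summed to 37005 to 39466 in hindlimb and 38038 to 39702 in forelimb samples. The part of RNA quality or of blood in the keratin differences was not tested. All samples were of E12.5, so a difference between limbs and a difference in how far each had developed cannot be told apart. Merkel cells of the skin also carry Krt8 and Krt18, and their part was not tested. The 4 Merkel cell markers summed to 237 to 266 in hindlimb and 225 to 264 in forelimb samples. Krt20 and Isl1, below 100 on every array, had 0.32 and 0.68 on their brightest probe sets (Isl1 0.97 on another), while Sox2, also below 100, had -0.37 and Atoh1 had -0.31. Krt20 and the second Isl1 probe set were higher in every hindlimb than in any forelimb sample, an arrangement found on 4.94% of all tested A probe sets. With signals this dim no order can be read.

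Wider epithelial lists of the A array, each gene by its brightest probe set, held 0 genes past the limma threshold. Of the 60 tested genes of these 5 lists, 9 had an unadjusted p under 0.05 with a negative difference and 0 with a positive one, where the negative direction and this p held for 3.69% of all tested probe sets. The lists were chosen with earlier results of these data known, and the share counts probe sets rather than genes. The count is thus a description only. Among keratins of the epidermis and periderm beside the members, 7 of 14 were tested and all 7 had negative differences, with a median of -0.17. The 14 summed to 1317 to 1418 in hindlimb and 1584 to 1667 in forelimb samples, so the limbs parted. Krt17, a keratin of activated and appendage epidermis, had 117.2, 173.5 and 128.1 in hindlimb and 216.5, 220.7 and 168.1 in forelimb samples (-0.45 ± 0.18, limma adjusted p = 0.839), and hindlimb 14 overlapped with the forelimb. Krt6a had -0.31 (-0.05 on another probe set), Krt77 -0.33 and Krt80 -0.17. Over all tested probe sets of the array 52.2% were below 0.

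The desmosome, hemidesmosome and basement membrane list had a median of -0.18, with 15 of 17 tested genes below 0. The list summed to 5648 to 6198 in hindlimb and 6513 to 7311 in forelimb samples. Dsp, the desmosomal plaque protein desmoplakin that holds keratin filaments, had 508.7, 466.4 and 527.0 in hindlimb and 709.1, 867.8 and 707.5 in forelimb samples. The limbs did not overlap, and the difference was -0.57 ± 0.13 (limma adjusted p = 0.439), with -0.29 and -0.09 on its other probe sets. Col17a1, a hemidesmosomal collagen, had 207.9, 169.8 and 145.4 in hindlimb and 237.2, 315.8 and 299.5 in forelimb samples (-0.62 ± 0.17, adjusted p = 0.564). Col7a1, the collagen of anchoring fibrils, had -0.39. Dsg2, a desmosomal cadherin, had -0.41 with overlapping limbs, and its other tested probe sets gave -0.46, 0.13 and -0.05.

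The transcription and stratification list had 9 of 12 tested genes below 0 and a median of -0.16. Its sums also parted, at 3129 to 3364 in hindlimb and 3513 to 3855 in forelimb samples. These sums include Tfap2a, which had the largest difference among the tested genes of the list. Alone they do not show that the other genes parted the limbs. Tfap2a, the AP-2 alpha factor of the surface ectoderm, had 521.6, 548.5 and 343.0 in hindlimb and 669.8, 667.5 and 687.8 in forelimb samples (-0.52 ± 0.17, limma adjusted p = 0.65). Its other probe sets gave -0.18 and -0.29, with overlapping limbs. Klf4, a barrier factor of the epidermis, had -0.48, Klf5 -0.39 and Tfap2c -0.38. All 4 had hindlimb below forelimb in every sample on these probe sets, an arrangement found on 6.1% of all tested A probe sets. They are the 4 tested genes of smallest p in the list. That choice favours such an arrangement, so their number cannot be read against this share. Tfap2c entered the test through its 3 forelimb arrays alone, so the filter favoured this direction. Other dim Tfap2c probe sets, not tested, gave -0.80 and 0.50, and Klf5 gave -0.29 on the A and 0.44 on the B array.

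Of the tested junction, splicing and protease genes, a list that includes Epcam and Cdh1, 9 of 14 were below 0, with a median of -0.01. The summed signal of the list was lower in every hindlimb sample, at 4446 to 4810 in hindlimb and 4925 to 5294 in forelimb samples. This sum includes Crb3, which had the largest difference among the tested genes of the list. The sum alone does not show that the other genes parted the limbs. Crb3, an apical polarity protein, had 312.5, 325.6 and 247.4 in hindlimb and 458.1, 554.1 and 478.9 in forelimb samples (-0.70 ± 0.15, limma adjusted p = 0.301; -0.33 on another tested probe set, with overlapping limbs). The claudins of tight junctions went both ways, with Cldn4 at -0.33, Cldn6 at -0.24 and Cldn3 at 0.55. Cldn3 overlapped between the limbs.

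All 10 tested genes of the apical ridge and dorsoventral ectoderm list were below 0 on the A array, with a median of -0.19, and 6 of 9 were on the B array, with a median of -0.06. The A list summed to 3025 to 3452 in hindlimb and 3597 to 3845 in forelimb samples. The B list summed to 4880 to 5329 in hindlimb and 5383 to 6912 in forelimb samples. Each sum leaned on its brightest gene. Msx2 had 809.5 to 909.6 in hindlimb and 1040.8 to 1160.7 in forelimb samples on A. Lmx1b had 1328.4 to 1795.5 in hindlimb and 1695.5 to 2578.2 in forelimb samples on B. The sums alone do not show that the other genes of a list parted the limbs. Lmx1b, a dorsal mesenchyme factor, had -0.40 on the B array with overlapping limbs, Cd44 had -0.25 there, and Fgf9 had 0.21 on the B and -0.24 on the A array. Msx2, a homeobox factor of ridge and mesenchyme, had -0.35 ± 0.12 on the A array (limma adjusted p = 0.684) and 0.15 on the B array. Wnt4 had -0.26 on the A and -0.45 on the B array, with overlapping limbs on both. Wnt10a and Cd44 had -0.27 and -0.24 on the A array. Wnt7a, the dorsal counterpart of En1, had -0.03 on the A and -0.06 on the B array. Fgf8, the ridge signal, did not reach 100. On the B array the other epithelial lists had 2 to 5 tested genes each and overlapping sums, with 0 at an unadjusted p under 0.05, and medians of -0.13 for keratins (Krt13 -0.26, Krt4 0.01), 0.08 for the desmosome list (Fras1 0.21, Frem1 0.20), -0.31 for transcription factors (Tfap2b -0.33, Ehf -0.31) and -0.10 for junctions (Lsr -0.72, with 0.21 on the brighter A probe set, and Cgn -0.17). Over all B probe sets the median was -0.01.

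**Figure D4:**
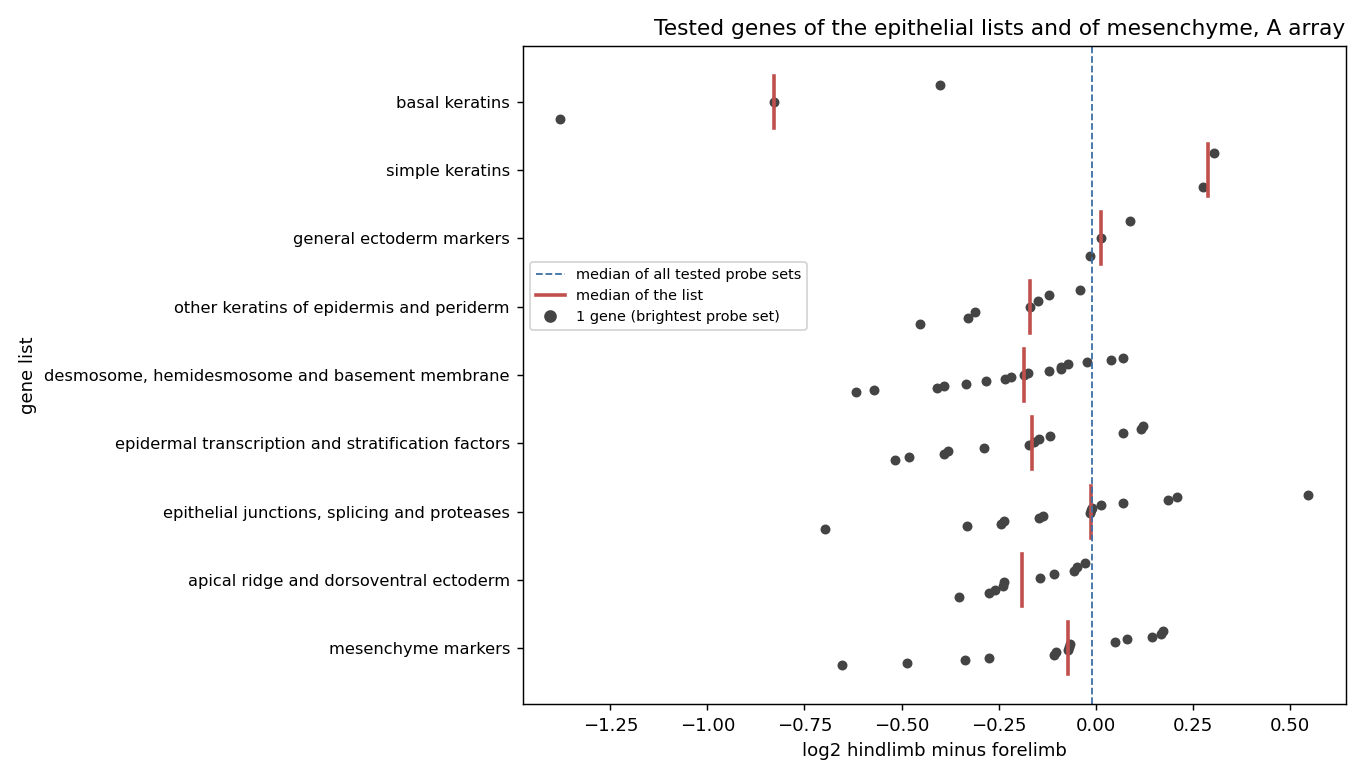
Log2 hindlimb minus forelimb of the tested genes of each list on the A array, 1 point per gene (brightest probe set), with the median of the list (red bar) and of all tested probe sets (dashed line). The medians are -0.83 for basal keratins, 0.29 for simple keratins and 0.01 for general markers, and from -0.19 to -0.01 for the other epithelial lists.

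The mesenchyme list, for comparison, had 9 of 14 tested genes below 0 on the A array and a median of -0.07, with Twist2, a dermal and connective tissue factor, at -0.65 ± 0.18 (limma adjusted p = 0.552), Col1a2 at -0.34, Twist1 at -0.27 and Zeb2 at -0.49. On the B array its median was 0.06, and Col1a2 had 0.57 with overlapping limbs. The other marker lists on the A array had medians of -0.07 for endothelium (Pecam1 -0.22), -0.07 for macrophages (Csf1r -0.16, with 0.10 and 0.11 on dimmer probe sets), 0.23 for Schwann cells and axons (Nefm 0.72, Nefl 0.47), 0.04 for melanoblasts (Pmel 0.40) and -0.20 for muscle progenitors (Myog -0.30). Their summed signals overlapped between the limbs. Nefm reached 100 in hindlimb samples alone, so the filter favoured its direction.

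Likeness between genes was measured as the root mean square distance between log2 profiles over the 6 arrays, each centred on its mean. Nearest to Krt15 among all tested A probe sets with a single gene were Ogn (0.158), a small proteoglycan of connective tissue, Gsn (0.232), the actin-severing protein gelsolin, and Rdh10 (0.233), an enzyme of retinoic acid synthesis. Ogn had 67.0, 44.1 and 53.4 in hindlimb and 284.9, 136.5 and 132.1 in forelimb samples. It reached 100 in forelimb samples alone, as did Ambn below, so the filter favoured their direction. Nearest to the brightest Krt14 probe set were Rdh10 (0.106), Lum (0.110), the proteoglycan lumican, and Ambn (0.112), an enamel matrix protein whose signals were 48.3 to 82.7 in hindlimb and 119.7 to 157.0 in forelimb samples. From this Krt14 probe set, 1460347_at of the same gene lay at 0.173 and Krt5 at 0.279, where the median probe set lay at 0.516. The dim Krt14 probe set 1455573_at lay at 0.519, past that median. For Krt8 the nearest were Bub1 (0.027), a mitotic checkpoint kinase, Bloc1s4 (0.031) and Emc8 (0.037), and for Krt18 they were Vopp1 (0.061), Tmem41a (0.065) and Taf1d (0.074). Krt8 and Krt18 lay 0.214 apart. Nearer to Krt8 than Krt18 was were 6418 other probe sets, and nearer to Krt18 than Krt8 was were 1658. With 6 arrays and 15338 probe sets, close profiles arise easily, and the distances are a description of these samples.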

How the data were processed

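Per the labels, the authors deposited intensities from MAS5.0 in linear units, 1 signal for each probe set (the note is lacking for 1 A array). The 2% trimmed mean of the deposited signals was 350.1 on every A and 70.0 on every B array, so they had been scaled within a design. How a signal was called present is not given in the sources, and the few arrays limit precision. For this report all arrays were rescaled to a trimmed mean of 500 (1.43 times for A, 7.14 times for B). The filter is thus laxer on B, and levels were not compared across designs. Logs were taken of signal + 32, and 64 control probe sets per design were dropped. Symbols of the platform annotation were updated by gene identifier with RefSeq GRCm38.p6, used for names, neighbours and start regions only. A single symbol was found for 20393 probe sets on A and 14674 on B. Of the 10 members, 6 had a RefSeq start region. The limbs were compared with limma 3.58.1 (R 4.3.3), a two-sided moderated test with a trended prior, and p-values were adjusted by Benjamini-Hochberg within a design. The fit was tested on simulated data. Figures were made in Python 3.11.15 with matplotlib 3.10.9.

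The members and the gene lists were chosen with earlier results of these data known, so no list was tested and no p was adjusted over a list. All member probe sets are named. Each other list is shown by up to 4 tested genes of smallest p per design (brightest probe set per gene), and a few others were named after their values were seen. For 4 keratins the 3 nearest profiles are given. The alternatives changed the pseudocount (1 or 100), the filter (none, or a signal of 200), the scaling (quantile, or as deposited), the trend, the weights of arrays, a block made of consecutive numbers, the probe sets used for the keratin contrast, and the samples, each left out in turn.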

Additional observations from a re-analysis of the deposited data

How the results depend on the processing

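The signs of Krt5, Krt14, Krt15, Krt8 and Krt18 held under each of the 14 or 15 other settings that kept them. Krt15 ranged from -1.65 to -1.02 and passed under 2 settings, array weights (limma adjusted p = 0.0291) and consecutive sample numbers as a replicate block (adjusted p = 0.0416). The labels do not call these numbers pairs, and deviations of consecutive samples correlated by 0.208, 0.108 and 0.076 on the A and 0.002, 0.048 and 0.039 on the B array; each sample went best with its own neighbour in 3 of 3 cases on A and 2 of 3 on B. The basal minus simple difference on the A array was -1.16 with the brightest probe set per gene, and -1.07 to -0.78 with a sample left out. Near 0, signs turned: Epcam on the A array was 0.00 with quantile normalization, 0.02 with array weights and -0.17 to 0.11 with a sample left out. With a sample left out Cdh1 ranged from -0.12 to 0.17, Trp63 on the A array from 0.00 to 0.15, and Epcam on the B array from -0.39 to 0.29. Of all A probe sets 5 passed; 1 did without a filter, 14 with array weights, 8 with the block and 3 to 9 with a sample left out. Of all B probe sets 2 passed; 1 did without a filter, 0 without the trend in limma (871 at an unadjusted p under 0.05), 4 with the block and 1 to 4 with a sample left out. Dim signals without detection calls limit Krt15, Krt19, En1 and the x probe sets of Krt8.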

Other observations

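The A probe set that the annotation gives to both Krt17 and Krt14, 1427841_at, had 163.4, 124.1 and 106.8 in hindlimb samples 12, 14 and 26, and 41.7, 131.1 and 159.5 in forelimb samples 11, 13 and 25. Forelimb 11, the highest sample on Krt14 1423935_x_at and 1460347_at and on Krt15, was the lowest here. The limbs overlapped, with a difference of 0.29 ± 0.32 (limma adjusted p = 0.978).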
